A study of Oryctolagus cuniculus with 8 samples.

Results

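The genes described here encode redox defence and xenobiotic enzymes, 69 of the 20922 gene entries of an RNA-seq count table of rabbit limbal epithelium. The members are picked out by a rule on gene names that uses no measured value, although the set of names was proposed with earlier results of these data known. The names covered superoxide dismutases, catalase, peroxiredoxins, glutathione peroxidases, thioredoxins and their reductases, enzymes of glutathione synthesis and recycling, HMOX1 and NQO1, glutathione transferases, cytochromes P450, aldehyde dehydrogenases, aldo-keto reductases and sulfotransferases. Entries with a numbered copy suffix were not included, and ALDH1A1, ALDH3A1, HMOX2, PRDX2, GPX2, GPX4 and TXNRD2 were not analysed here.

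The samples were 4 libraries of side population (SP) cells and 4 of non-side-population (NSP) cells. Both were sorted from limbal epithelium, where the cornea meets the conjunctiva, and the animals were New Zealand white rabbits. Side population cells pump out the DNA dye Hoechst and appear dim in flow cytometry, and the design asked how their expression differed from that of the remaining limbal epithelial cells. No treatment or genotype was named for either group; total RNA was sequenced on an Ion Proton instrument. Nothing in the labels ties a library to an animal, so the p-values reflect only the variation among these samples, which may be technical.

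Reactive oxygen species are removed in steps. Superoxide dismutases turn superoxide into hydrogen peroxide, which catalase, the peroxiredoxins and the glutathione peroxidases then reduce to water. Peroxiredoxins draw electrons from thioredoxin and its reductase, glutathione peroxidases draw them from glutathione, and many of these genes are targets of the transcription factor NRF2. Cytochromes P450 oxidise foreign and endogenous compounds, while glutathione transferases and sulfotransferases conjugate the products and aldehyde dehydrogenases and aldo-keto reductases clear reactive aldehydes. The ocular surface is exposed to light and air, and its epithelium is known for a high content of such enzymes.

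SP libraries held 15553295 to 18931836 reads in exons and NSP libraries 20445565 to 23529101. Markers did not match the tissue label equally in both groups. All 9 measured markers of limbal and corneal epithelium were lower in SP, with a summed level of 692 to 7089 CPM in SP libraries, against 19927 to 39367 CPM in NSP libraries. All 7 endothelial markers were higher in SP (1047 to 9856 CPM in SP, 0.966 to 2.63 CPM in NSP), as were all 6 T and NK cell markers (320.2 to 1322 CPM in SP, 3.00 to 6.81 CPM in NSP) and all 6 melanocyte markers (1829 to 12909.8 CPM in SP, 90.6 to 258 CPM in NSP). In bulk samples, fewer cells of a type and less RNA per cell cannot be told apart.

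Other lists moved the same way. Stromal and mural markers were higher in SP for 6 of 6 (213 to 384 CPM in SP, 36.8 to 53.8 CPM in NSP), pan-leukocyte markers for 4 of 5 (1438 to 4283 CPM in SP, 214 to 588 CPM in NSP) and myeloid markers for 3 of 4 (93.3 to 229.8 CPM in SP, 22.2 to 43.9 CPM in NSP). Most of the pan-leukocyte sum in NSP was LCP1 (177 to 552 CPM), which was not called, while PTPRC was at 0 to 0.855 CPM there. DCN (29.9 to 43.8 CPM) made up most of the stromal sum in NSP. Mast cell markers were higher in SP for 3 of 3 tested (205 to 483 CPM in SP, 44.9 to 58.4 CPM in NSP) and Schwann cell markers for 2 of 3 (109 to 660.4 CPM in SP, 0.499 to 6.23 CPM in NSP). Most of the mast cell sum came from KIT alone (201 to 470.5 CPM in SP, 44.9 to 58.4 CPM in NSP). CPA3 of that list had 7 reads in SP and 1 in NSP and was not tested. Erythroid markers were near 0 in both groups (0 to 2.23 CPM in SP, 0 to 1.75 CPM in NSP). In NSP libraries, CD8B of the T cell list and COL3A1 and LUM of the stromal list had no read. The part of these marker differences in the results on redox and xenobiotic enzymes was not tested.

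Of the 69 members, 6 had no read in any library and 46 passed the filter on low counts and were tested. Expression is given as CPM (counts scaled by TMM to a common library total). Each log2 fold change has SP on top and stands with the standard error of its limma-voom estimate. A gene was called at a Benjamini-Hochberg adjusted p of 0.05 over all 10012 tested genes. By that rule 6 tested members (13.0%) were higher in SP, where 17.7% of all tested genes were, and 11 members (23.9%) were lower in SP, where 13.0% of all tested genes were. The median log2 fold change of the tested members was -0.44, against 0.12 over all tested genes, and 31 were negative. In 5 members every SP library stood above every NSP library and in 10 every SP library stood below, against 18.8% and 14.0% of all tested genes. The higher and lower counts were 4 and 13 with median-of-ratios factors and 4 and 14 with upper-quartile factors, which moved the median of all genes by -0.12 and -0.18.

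**Figure D1:**
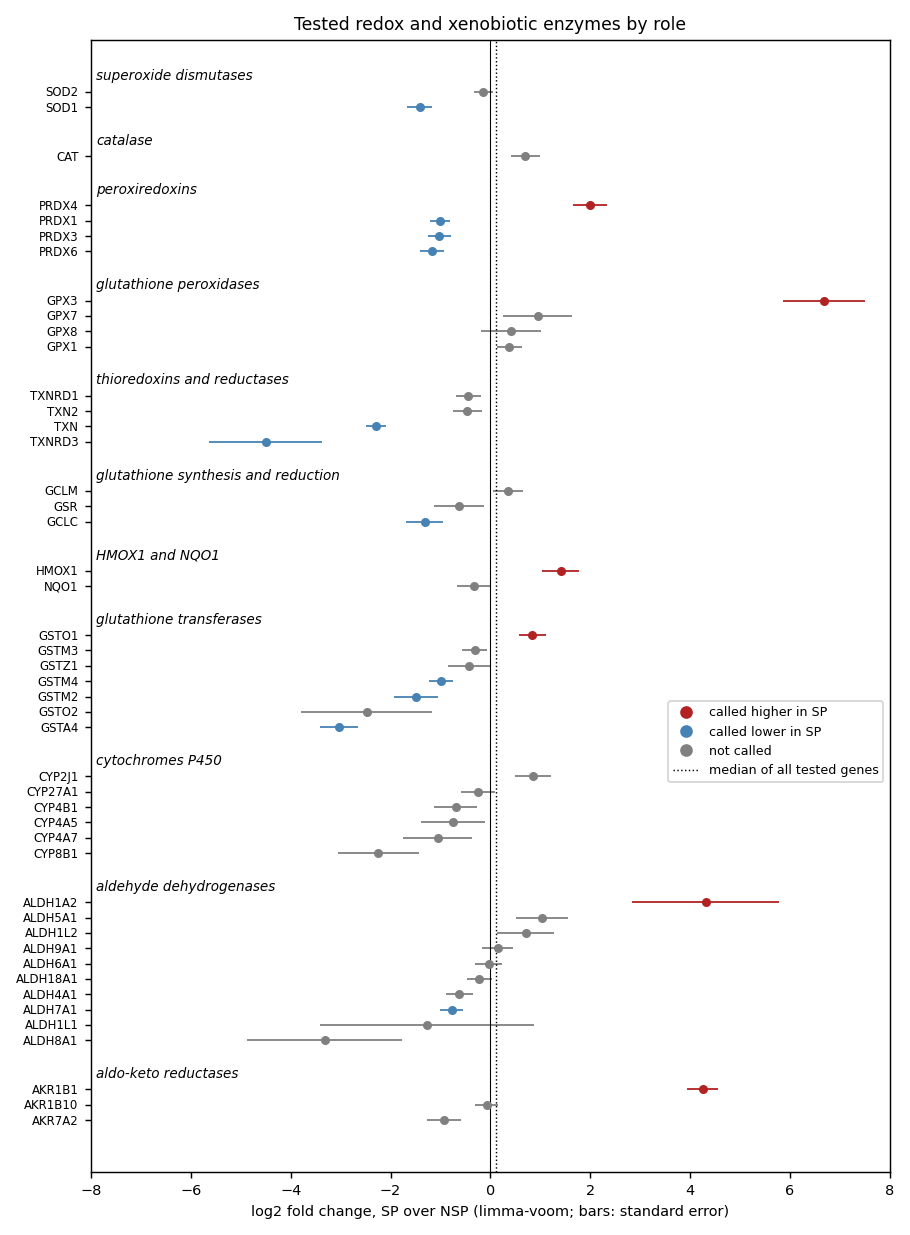
Log2 fold change, SP over NSP, with its standard error for each of the 46 tested members, grouped by role; red points were called higher in SP, blue points lower, grey points were not called, and the dotted line marks the median of all tested genes at 0.12. The called members higher in SP are GPX3, ALDH1A2, AKR1B1, PRDX4, HMOX1 and GSTO1.

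Per exon length, TXN and enzymes acting on peroxide or superoxide led the group in NSP. In SP the mean of AKR1B1 ranked above that of SOD1 (418 ± 95.2 CPM per kilobase of exon, SD, n = 4) only through library 3. There AKR1B1 was at 712 and SOD1 at 328, while SOD1 was the higher of the pair in libraries 1, 2 and 4. In NSP cells, TXN led with 2822 ± 86.9 CPM per kilobase of exon (SD, n = 4), followed by PRDX1 at 1731 ± 192, GPX1 at 1268 ± 237, SOD1 at 1119 ± 244 and PRDX6 at 1007 ± 132. In SP cells, GPX1 led with 1665 ± 412 CPM per kilobase, followed by PRDX1 at 852 ± 51.6, TXN at 579.5 ± 98.9, GPX3 at 488 ± 414, PRDX6 at 454 ± 120.0 and AKR1B1 at 438 ± 183. In SP, GPX3, PRDX6 and AKR1B1 lay within their spread of each other, and in NSP the ranges of GPX1, SOD1 and PRDX6 overlapped. AKR1B1 ranked 6 of 46 in SP and 29 in NSP, and GPX3 ranked 4 in SP and 38 in NSP.

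**Figure D2:**
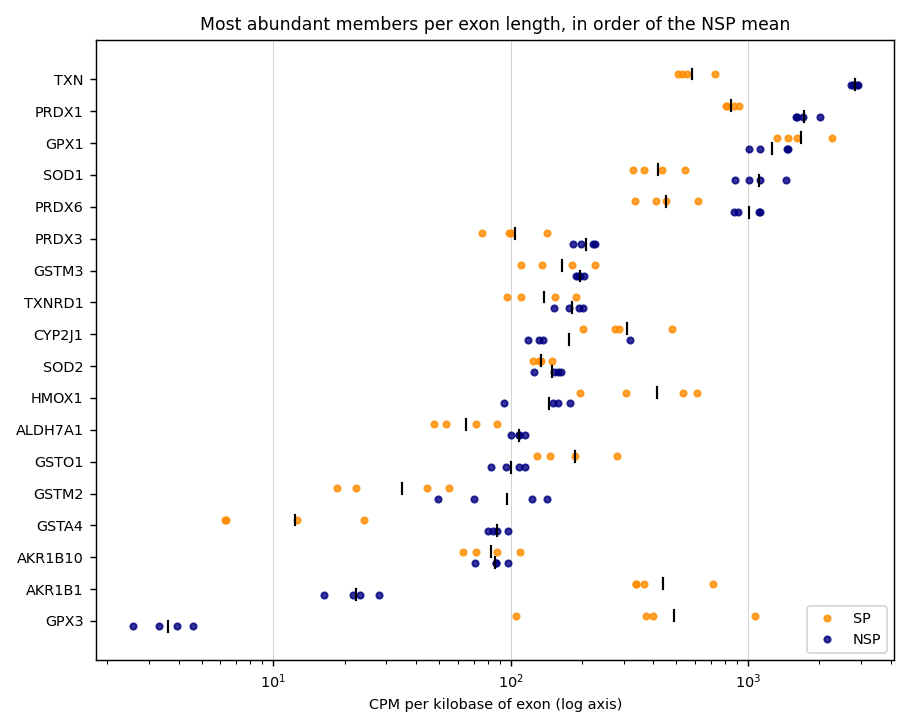
CPM per kilobase of exon on a log axis for members among the 15 highest of either group, in order of the NSP mean; orange points are SP libraries, dark blue points NSP libraries, and black bars the group means. TXN has its 4 SP libraries between 508 and 725 and its 4 NSP libraries between 2726 and 2912, while GPX3 and AKR1B1 stand far higher in SP.

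The cytosolic superoxide dismutase was lower in SP cells and the mitochondrial enzyme was not called. SOD1, the copper-zinc enzyme of the cytosol, was at 330.1, 392, 296 and 492 CPM in SP libraries 1 to 4, against 913, 800.0, 1314 and 1018 CPM in NSP libraries 1 to 4. Every SP library lay below every NSP library, and the log2 fold change was -1.42 ± 0.25 (adjusted p = 0.00198, limma-voom). SOD2, the manganese enzyme of mitochondria, was at 356, 379.7, 389 and 428 CPM in SP, against 359, 469, 454 and 438 CPM in NSP. These ranges overlapped, with a log2 fold change of -0.14 ± 0.19 (95% interval -0.57 to 0.29, adjusted p = 0.614, limma-voom). SOD3, the secreted enzyme, had 4 reads over the SP libraries and 0 over the NSP libraries and was not tested.

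Catalase (CAT), the haem enzyme of peroxisomes that breaks down hydrogen peroxide, did not pass the threshold. It was at 85.8, 65.6, 152 and 101 CPM in SP libraries, against 45.4, 70.2, 58.6 and 67.7 CPM in NSP libraries. The groups overlapped only through SP library 2, and the log2 fold change was 0.70 ± 0.29 (adjusted p = 0.0938, limma-voom). Of 14 alternative fits, only the 1 without SP library 2 called CAT higher in SP (adjusted p = 0.0476, limma-voom). Among the others the adjusted p reached 0.339.

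All 4 peroxiredoxins tested differed between the groups, 3 lower and 1 higher in SP. PRDX1, the abundant cytosolic thiol peroxidase, was at 815, 927, 882 and 826 CPM in SP libraries, against 1624, 1619, 2032 and 1732 CPM in NSP libraries. All SP values lay below all NSP values, at a log2 fold change of -1.02 ± 0.20 (adjusted p = 0.00338, limma-voom). PRDX6, which uses glutathione in place of thioredoxin, was at 673, 1014, 548 and 743 CPM in SP, against 1852, 1494, 1439 and 1826 CPM in NSP. Its groups did not overlap either, with a log2 fold change of -1.18 ± 0.24 (adjusted p = 0.00483, limma-voom).

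PRDX3, the mitochondrial member, was lower in SP by a similar amount. It was at 116, 149, 153 and 217 CPM in SP, against 279, 303, 344 and 338 CPM in NSP, a log2 fold change of -1.03 ± 0.23 (adjusted p = 0.00780, limma-voom). PRDX4, the member of the endoplasmic reticulum, which couples peroxide to the folding of secreted proteins, was higher in SP. Its values were 135, 60.9, 85.2 and 58.0 CPM in SP, against 19.8, 27.3, 16.6 and 18.5 CPM in NSP. Every SP library exceeded every NSP library, SP library 1 most, and the log2 fold change was 1.99 ± 0.34 (adjusted p = 0.00179, limma-voom). The entry of PRDX5 is 321 bases long and had no read in any library. Summed over the 4 detected peroxiredoxins, SP cells held 1850.2 ± 213 CPM and NSP cells 3741 ± 206 CPM (SD, n = 4).

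Among the glutathione peroxidases, GPX3 was higher in SP cells and no tested member was lower. GPX3, the secreted plasma enzyme, was at 175, 619, 667 and 1793 CPM in SP libraries, against 4.27, 7.66, 6.59 and 5.51 CPM in NSP libraries. All SP libraries were far above the NSP libraries, and differed widely among themselves, with the lowest value in library 1 and the highest in library 4. The log2 fold change was 6.68 ± 0.82, a fold of 102 (adjusted p = 3.71e-04, limma-voom). It was 7.27 without SP library 1 and 6.01 without SP library 4. The summed endothelial markers took the same order over the SP libraries, at 1047, 3573, 4019 and 9856 CPM in libraries 1 to 4, and so did the myeloid markers, at 93.3, 143, 199.7 and 229.8 CPM. The single markers of these lists did not all do so. VWF, which made up most of the endothelial sum in each SP library, shared the order, as did PECAM1, TEK and CD14. EMCN, CSF1R and SPI1 were highest in SP library 3, and CD68 was highest in SP library 2. CDH5, KDR and TIE1 were higher in SP library 2 than in SP library 3. The part of both lists in the GPX3 values was not tested.

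GPX1, the cytosolic selenoenzyme, was the most abundant member per exon length in SP, but its groups overlapped. It was at 1007, 1218, 1115 and 1715 CPM in SP, against 1113, 769, 850.1 and 1117 CPM in NSP. The log2 fold change was 0.38 ± 0.25 (95% interval -0.16 to 0.93, adjusted p = 0.263, limma-voom). GPX7 and GPX8, peroxidases of the endoplasmic reticulum, were low in both groups and not called, with log2 fold changes of 0.95 ± 0.69 and 0.42 ± 0.60 (adjusted p = 0.323 and 0.632, limma-voom). GPX6, known from olfactory epithelium in mice, had 0 reads over the SP libraries and 27 over the NSP libraries and did not enter the test. NSP libraries 1 to 4 held 0, 13, 9 and 5 of these reads, so NSP library 1 did not differ from SP. Against a floor of 3 reads over the SP group, the pooled NSP reads put GPX6 at least 7.52-fold lower in SP. This bound leaves out the spread among NSP libraries. GPX5 had no read.

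In the thioredoxin system, the cytosolic carrier was lower in SP and its main reductase was not called. TXN, which hands electrons to peroxiredoxins and ribonucleotide reductase, was at 263, 287, 375 and 274 CPM in SP libraries, against 1487, 1506, 1433 and 1409 CPM in NSP libraries. The groups stood far apart and varied little within themselves, at a log2 fold change of -2.30 ± 0.20 (adjusted p = 1.05e-04, limma-voom). TXN2, the mitochondrial thioredoxin, was at 37.3, 38.9, 76.9 and 72.3 CPM in SP, against 75.8, 56.9, 90.8 and 72.6 CPM in NSP. Its ranges overlapped, and the log2 fold change of -0.46 ± 0.30 did not pass the test (adjusted p = 0.268, limma-voom).

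TXNRD1, the cytosolic reductase that recharges thioredoxin, was at 170.2, 332, 195 and 269.9 CPM in SP, against 353, 269, 340.1 and 310.5 CPM in NSP. It too overlapped between groups (log2 fold change -0.44 ± 0.25, adjusted p = 0.212, limma-voom). TXNRD3, a reductase best known from mouse testis that also carries a glutaredoxin domain, was at 1.79, 3.31, 0 and 4.94 CPM in SP, against 14.8, 22.9, 21.3 and 23.9 CPM in NSP. It was low but set apart in every SP library, with a log2 fold change of -4.50 ± 1.13 (adjusted p = 0.0128, limma-voom). SP library 3 had no read, and the size moved between fits. It was -2.74 without SP library 3, -5.16 without SP library 2, -5.40 without SP library 4, -3.24 with limma-trend and -3.12 with a quasi-Poisson model.

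**Figure D3:**
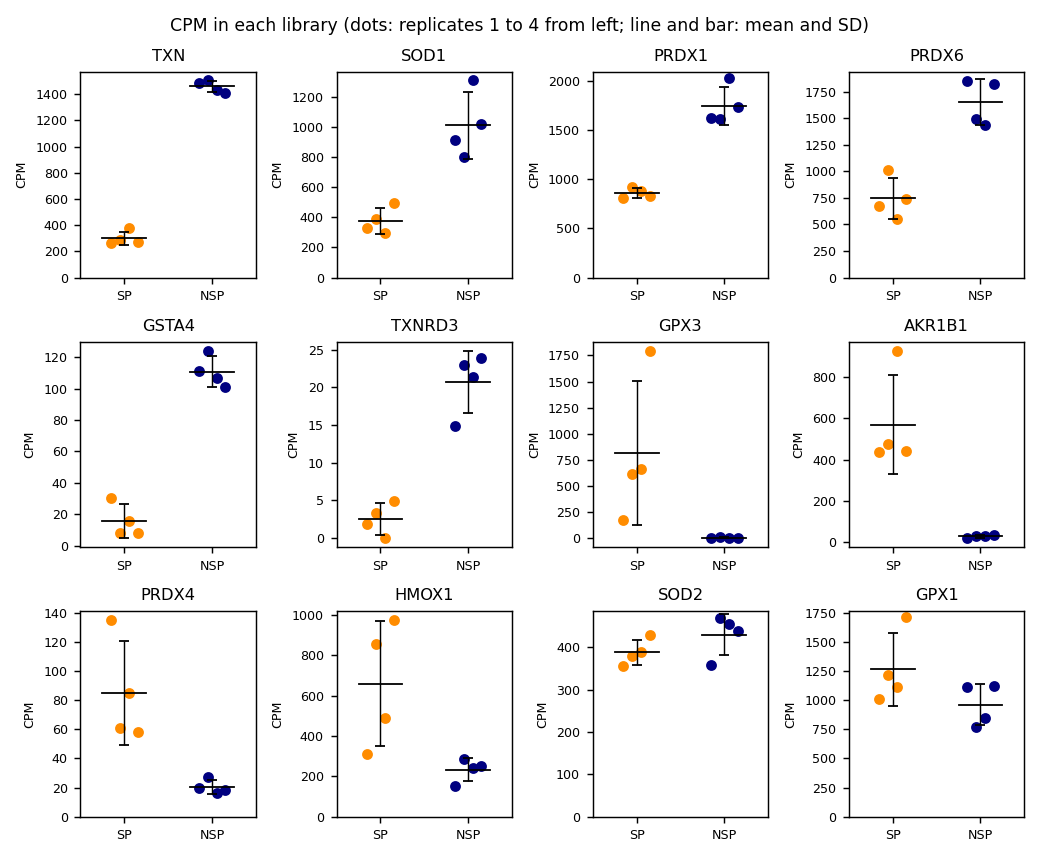
CPM in each library for 12 members on linear axes that start at or just below 0, SP on the left and NSP on the right; dots are libraries 1 to 4 from left to right, lines are means and bars are SDs. The SP libraries lie below all NSP libraries for TXN, SOD1, PRDX1, PRDX6, GSTA4 and TXNRD3, above them for GPX3, AKR1B1, PRDX4 and HMOX1, and overlap them for SOD2 and GPX1.

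Glutathione synthesis begins with glutamate-cysteine ligase, whose catalytic subunit is encoded by GCLC and whose regulatory subunit by GCLM. GCLC was at 115, 100.3, 49.5 and 38.8 CPM in SP libraries, against 199, 139, 247 and 131 CPM in NSP libraries. The groups did not overlap, and the log2 fold change was -1.32 ± 0.37 (adjusted p = 0.0217, limma-voom). The call was lost without SP library 3 or without NSP library 3 (adjusted p up to 0.0623). GCLM was at 29.8, 35.9, 46.5 and 21.4 CPM in SP, against 27.6, 32.6, 19.3 and 23.6 CPM in NSP. It overlapped and was not called, at 0.36 ± 0.30 (adjusted p = 0.402, limma-voom). GSR, which regenerates reduced glutathione, was not called either, with 17.8 ± 11.3 CPM in SP libraries and 26.5 ± 14.6 CPM in NSP libraries (SD, n = 4; log2 fold change -0.63 ± 0.51, adjusted p = 0.382, limma-voom).

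HMOX1, the inducible haem oxygenase that breaks haem into iron, carbon monoxide and biliverdin, was higher in SP. It was at 313, 857, 489.7 and 978 CPM in SP libraries, against 151, 284, 241 and 253 CPM in NSP libraries. The lowest SP library was still above the highest NSP library, and the log2 fold change was 1.41 ± 0.37 (adjusted p = 0.0156, limma-voom). Its call was lost without SP library 4 or without NSP library 1 (adjusted p up to 0.0794). NQO1, the quinone reductase often read as an NRF2 target, was at 31.1, 73.6, 26.8 and 60.7 CPM in SP, against 50.8, 48.9, 49.6 and 73.3 CPM in NSP. SP libraries lay on both sides of the NSP values, with a log2 fold change of -0.33 ± 0.34 (95% interval -1.09 to 0.44, adjusted p = 0.507, limma-voom).

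Glutathione transferases couple glutathione to reactive compounds. Of 7 members, all tested, 3 were lower and 1 was higher in SP. GSTA4, known for detoxifying lipid peroxidation aldehydes, was at 30.5, 8.01, 16.0 and 7.94 CPM in SP, against 111, 124, 107 and 101 CPM in NSP. The groups lay far apart, at a log2 fold change of -3.03 ± 0.38 (adjusted p = 4.02e-04, limma-voom). Of the mu class, GSTM4 was at 22.4, 27.1, 28.4 and 38.2 CPM in SP, against 61.3, 59.9, 51.1 and 53.8 CPM in NSP, with no overlap (0.501 of the NSP level in the fit, adjusted p = 0.0102, limma-voom).

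GSTM2 was at 26.8, 64.0, 32.4 and 79.3 CPM in SP, against 101, 178, 71.3 and 207 CPM in NSP. Here SP library 4 exceeded NSP library 3, and the log2 fold change was -1.49 ± 0.44 (adjusted p = 0.0253, limma-voom). The call was lost without any of SP libraries 1 and 3 and NSP libraries 2 and 4 (adjusted p up to 0.0722). GSTM3 was not called, at 154 ± 48.8 CPM in SP libraries and 184 ± 6.09 CPM in NSP libraries (SD, n = 4; adjusted p = 0.378, limma-voom). How reads shared by near-identical mu class copies were counted is not given in the sources used here, so these values are uncertain.

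GSTO1, an omega class enzyme that acts as a thioltransferase, was at 159, 124, 239 and 109 CPM in SP, against 69.9, 97.4, 92.3 and 81.1 CPM in NSP. All SP libraries were higher, with a log2 fold change of 0.84 ± 0.27 (adjusted p = 0.0391, limma-voom). The call was lost in 9 of 14 alternatives (adjusted p up to 0.172), among them both other scalings and every fit that left out an NSP library or SP library 1 or 3. GSTO2 was near 1 CPM in both groups, at 0.552 ± 0.614 CPM in SP libraries and 1.52 ± 1.07 CPM in NSP libraries (SD, n = 4; log2 fold change -2.48 ± 1.31, adjusted p = 0.178, limma-voom). GSTZ1, an enzyme of tyrosine breakdown, was not called (-0.43 ± 0.42, adjusted p = 0.471, limma-voom).

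None of the cytochromes P450 was called. Of 18 members, 3 had no read and 6 were tested. CYP2J1, of the family that makes fatty acid epoxides, was the most abundant, at 517, 498, 865 and 365 CPM in SP, against 214, 239.8, 578 and 248 CPM in NSP. NSP library 3 stood among the SP values, and the log2 fold change was 0.86 ± 0.36 (adjusted p = 0.0978, limma-voom). Without that library it was called higher in SP, at 1.19 (adjusted p = 0.0188), and with quality weights at 1.12 (adjusted p = 0.0111). These were the only 2 of 14 alternatives that called CYP2J1. CYP4B1 was at 47.0, 92.2, 18.0 and 49.1 CPM in SP, against 93.9, 62.4, 56.2 and 81.1 CPM in NSP, with overlapping groups (-0.70 ± 0.43, adjusted p = 0.239, limma-voom).

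CYP8B1, a sterol hydroxylase of bile acid synthesis in liver, was at 3.86, 10.2, 0.753 and 2.51 CPM in SP, against 23.0, 5.54, 25.6 and 13.1 CPM in NSP. SP library 2 exceeded NSP library 2, and the log2 fold change was -2.25 ± 0.81 (adjusted p = 0.0577, limma-voom). The remaining tested members were CYP27A1 (-0.24 ± 0.34), CYP4A5 (-0.75 ± 0.64) and CYP4A7 (-1.06 ± 0.69), with limma-voom adjusted p of 0.626, 0.403 and 0.270. CYP2A11 had 20 reads over the SP libraries, 16 of them in SP library 2, and 0 over the NSP libraries. Of the CYP2C family, 8 entries held at most 18 reads per group, and CYP4A6 held 30 reads in SP and 32 in NSP. CYP7A1 held 6 reads in SP and 12 in NSP, and CYP19A1, the aromatase, had none. The counting of reads shared between CYP2C or CYP4A copies is likewise not known.

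Of 11 aldehyde dehydrogenases, 10 were tested and 2 were called. ALDH7A1, an enzyme of lysine breakdown that also clears lipid-derived aldehydes, was at 99.4, 87.9, 133 and 163 CPM in SP, against 186, 203, 202 and 213 CPM in NSP. The groups did not overlap, at a log2 fold change of -0.78 ± 0.23 (adjusted p = 0.0285, limma-voom). The call was lost without SP library 1 or 2 or without NSP library 2, 3 or 4 (adjusted p up to 0.0811). ALDH9A1, which acts on aminoaldehydes, was at 86.9, 143, 163 and 154 CPM in SP, against 161, 119, 72.0 and 149 CPM in NSP, and was not called (0.15 ± 0.31, adjusted p = 0.752, limma-voom).

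ALDH1A2, which makes retinoic acid, was called higher in SP on few reads. It was at 3.97, 6.77, 8.23 and 3.62 CPM in SP, against 13.6, 0.554, 0 and 0 CPM in NSP. NSP library 1 was the highest of all 8 libraries, so the groups overlapped although the log2 fold change was 4.31 ± 1.48 (adjusted p = 0.0482, limma-voom). It was 6.13 without NSP library 1 (adjusted p = 0.0115), 3.18 without NSP library 3, 3.14 without NSP library 4, 4.96 with quality weights, 2.07 with limma-trend and 0.64 with a quasi-Poisson model, and the call was lost in 12 of 14 alternatives (adjusted p up to 0.636).

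ALDH8A1, at 0.313 ± 0.627 CPM in SP libraries and 1.23 ± 1.37 CPM in NSP libraries (SD, n = 4), had a log2 fold change of -3.32 ± 1.55 that did not pass the test (adjusted p = 0.131, limma-voom). The other tested aldehyde dehydrogenases were ALDH18A1, ALDH1L1, ALDH1L2, ALDH4A1, ALDH5A1 and ALDH6A1, and they lay between -1.27 and 1.03 on the log2 scale. ALDH1B1 had 4 reads in each group and was not tested.

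AKR1B1, the aldose reductase that converts glucose to sorbitol and reduces lipid aldehydes, was higher in SP cells by 19.0-fold. It was at 438, 474, 927 and 441 CPM in SP libraries, against 21.4, 28.2, 30.1 and 36.1 CPM in NSP libraries. All SP libraries stood well above all NSP libraries, with library 3 the highest, and the log2 fold change was 4.25 ± 0.31 (adjusted p = 8.02e-05, limma-voom). The summed T and NK cell markers took the same order over the SP libraries, at 320.2, 857, 1322 and 502 CPM in libraries 1 to 4. So did the summed stromal and mural markers, at 213, 246, 384 and 224 CPM, and no other marker list did. AKR1B1 itself differed little between libraries 1, 2 and 4. Single markers were divided. CD8A, CD8B, PRF1, COL1A2 and COL3A1 shared the order, while CD2 and CD247 did not. TBX21, COL1A1 and PDGFRB were highest in library 4, and DCN and LUM were lowest there. The part of both lists in the AKR1B1 values was not tested. AKR1B10, a related reductase of retinal and other aldehydes, was at 80.8, 91.7, 113 and 141 CPM in SP, against 112, 91.2, 126 and 112 CPM in NSP. The NSP range lay within the SP range, and it was not called (-0.07 ± 0.23, 95% interval -0.59 to 0.44, adjusted p = 0.839, limma-voom). AKR7A2, an aldehyde reductase, was also not called (-0.93 ± 0.34, adjusted p = 0.0586, limma-voom).

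None of the 6 sulfotransferases had enough reads to be tested. SULT1E1, the oestrogen sulfotransferase, had 8 reads over the SP libraries and 48 over the NSP libraries, and SULT1C2 had 5 in SP and 7 in NSP. The other members had at most 5 reads per group.

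**Figure D4:**
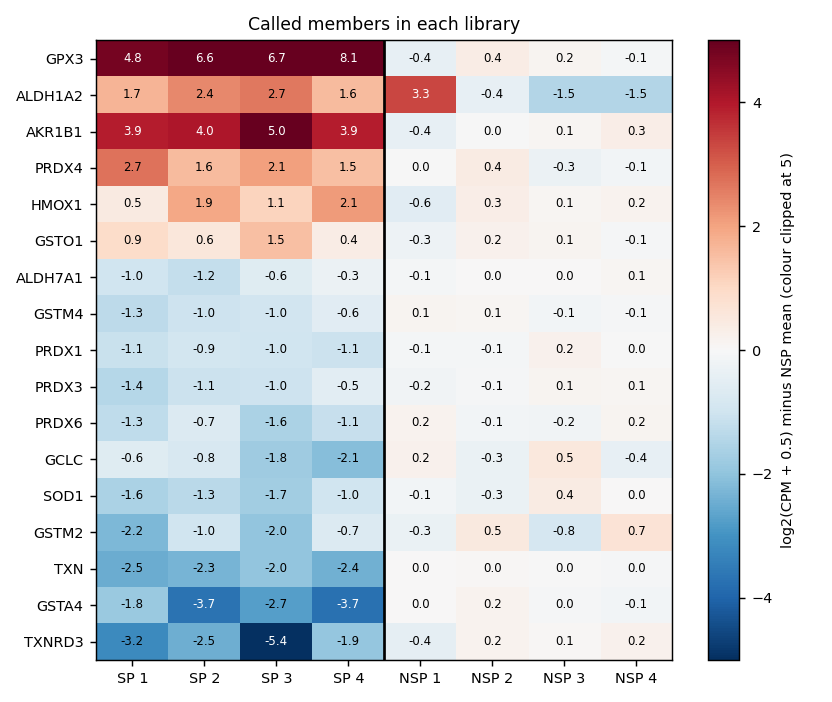
Difference of log2(CPM + 0.5) from the NSP mean in each library for the 17 called members, ordered by log2 fold change, with SP libraries left of NSP libraries; red is above and blue below the NSP mean. Every SP library has the sign of the call in each member, and NSP library 1 is the one that stands at 3.3 for ALDH1A2.

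The libraries of SP cells differed more among themselves than those of NSP cells. The coefficient of variation over 4 libraries had a median of 37.9% in SP and 22.4% in NSP over the 46 tested members and was larger in SP for 36. SP library 1 held the lowest SP value of 22 members and the highest of 6, while SP library 4 held the highest of 18. Leaving out SP library 4 gave 4 members higher and 15 lower in SP, and leaving out SP library 3 gave 4 higher and 9 lower. The counts of all tested genes moved too, to 2098 higher and 1752 lower without SP library 4. Without SP library 3 they were 1433 and 1008, against 1772 and 1301 with all libraries.

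The authors' deposited table gives fold changes of NSP over SP from an EDGE test. At a corrected p of 0.05 it called 4 members higher and 12 lower in SP. The share of all gene entries that the EDGE test called was not counted here, so these counts stand without a background. The authors' calls shared 4 higher and 10 lower members with the calls here. ALDH1A2, GSTO1 and ALDH7A1 were called here alone, and in the authors' deposited table CYP8B1 and the untested GPX6 were called lower in SP. For GPX3 the authors' deposited table has a fold of -128, where the minus sign marks a higher value in SP.

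Other genes of NRF2 signalling and xenobiotic sensing were divided as well. The list had 73 genes, of which 49 had a usable entry and 46 were tested; KEAP1 and AHR were not analysed here. Of the tested genes, 6 (13.0%) were higher in SP, where 17.7% of all tested genes were, and 10 (21.7%) were lower, where 13.0% of all tested genes were. Their median log2 fold change was -0.48, against 0.12 over all tested genes. Without SP library 3, NSP library 2 or NSP library 4 the number lower was 6 in each case. NFE2L2, which encodes NRF2 itself, was at 348, 469, 397 and 346 CPM in SP, against 529.9, 555, 582 and 445 CPM in NSP. SP library 2 overlapped the NSP range, and the log2 fold change of -0.44 ± 0.21 did not pass the test (adjusted p = 0.130, limma-voom). NFE2L2 passed in 1 of 14 alternatives, that with upper-quartile factors (adjusted p = 0.0370, limma-voom).

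Genes of the list that were higher in SP included GLRX, the glutaredoxin that reverses protein glutathionylation, at 222, 259, 387 and 326 CPM in SP, against 27.5, 22.6, 26.0 and 25.8 CPM in NSP. Its groups were wide apart (log2 fold change 3.52 ± 0.25, adjusted p = 8.02e-05, limma-voom). TXNIP, which binds and inhibits thioredoxin, was higher by 2.38 ± 0.29 (adjusted p = 3.46e-04, limma-voom), with 335, 539.8, 373 and 211 CPM in SP, against 59.9, 71.4, 62.6 and 71.7 CPM in NSP. CHAC1, which degrades glutathione, had a log2 fold change of 3.16 ± 0.50 and MSRB3, a methionine sulfoxide reductase, of 2.50 ± 0.64 (adjusted p = 0.00130 and 0.0138, limma-voom).

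Genes of the list that were lower in SP included ME1, the malic enzyme that supplies NADPH, at 13.0, 5.53, 5.86 and 6.27 CPM in SP, against 78.9, 60.4, 74.3 and 83.6 CPM in NSP. No SP library came near the NSP range (log2 fold change -3.35 ± 0.34, adjusted p = 1.83e-04, limma-voom). EPHX2, the soluble epoxide hydrolase, had a log2 fold change of -2.92 ± 0.38 and GSS, the glutathione synthetase, of -1.54 ± 0.30 (adjusted p = 4.76e-04 and 0.00338, limma-voom). SRXN1, the sulfiredoxin that repairs over-oxidised peroxiredoxins, had a log2 fold change of -1.69 ± 0.40 with SP library 4 above NSP library 3 (adjusted p = 0.00949, limma-voom).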

How the data were processed

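Per the labels' protocols, limbal SP and NSP cells (4 libraries each) were sorted with Hoechst dye and their RNA read on an Ion Proton. Not given in the sources used here: aligner, build, annotation. The authors deposited 1 fixed-width table of 163 fields of 8 characters, read here by position. Its whole-number exon counts were used as deposited, and since headers name only the group, libraries carry numbers in column order. Per the file headers, the deposited fold changes and corrected p-values are those of the authors' EDGE test. Another 140 per-library fields were not used.

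TMM factors (trims of 30% and 5%) scaled the counts to CPM. Genes with a CPM of at least 0.508 in 4 libraries and 15 reads in all were tested with limma-voom (limma 3.58.1, R 4.3.3; offset 0.5; two-sided; group only), after a check on simulated counts. In that check, limma-voom called 1 of 98 genes changed 2-fold, 81 of 99 changed 8-fold and 4 of 9743 unchanged genes. The simulation used the same dispersion for every gene, which does not match that of every member. PRDX1 and PRDX3, for example, were called at log2 fold changes of -1.02 ± 0.20 and -1.03 ± 0.23, near 2-fold. The share called at 2-fold in the simulation therefore does not carry over to such members. A member not called is still not shown to be equal between the groups. A count model of negative binomial type was not used. Tables and figures used Python 3.11.15, pandas 2.3.3 and matplotlib 3.10.9.

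Members and gene lists were chosen with earlier results of these data known. Genes named are fixed core redox genes, up to 4 called members per role and direction by p, the 2 most abundant per role, and uncalled members beyond a log2 fold change of 2; from the NRF2 list, NFE2L2 and up to 4 called genes per direction. Remaining members are named for completeness. Depth limits low genes, and counts without molecular identifiers are not independent molecules, so the floor of 3 reads covers counting error only.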

Additional observations from a re-analysis of the deposited data

Results flagged for a closer look

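In 92 groups of 4 libraries (46 tested members in SP and in NSP), 7 held a library far from the other 3 by Dixon's ratio, where chance gives about 1 in 20 groups. AKR1B1 was at 927 CPM in SP library 3, against 438 to 474 CPM in the other SP libraries. GSTZ1 was at 54.5 CPM in SP library 4, with 27.9 to 29.5 CPM in the others. ALDH1L1 was at 4.13 CPM in SP library 1, with at most 0.645 CPM in the others, and ALDH8A1 at 1.25 CPM in SP library 4, with no read in the others. Among NSP libraries, ALDH1A2 was at 13.6 CPM in library 1, with at most 0.554 CPM in the others. CYP2J1 was at 578 CPM in NSP library 3, with 214 to 248 CPM in the others, and NQO1 at 73.3 CPM in NSP library 4, with 48.9 to 50.8 CPM in the others. The 7 values came from 6 of the 8 libraries.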

How the results depend on the processing

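Of the 17 called members, 11 kept their call under all 14 alternatives (other scaling, no filter, other tests, and each library left out), and GSTO1, ALDH1A2, ALDH7A1, GCLC, GSTM2 and HMOX1 lost it under at least 1. Leaving out 1 library gave 4 to 7 members higher and 9 to 15 lower in SP, 4 to 8 higher and 6 to 12 lower of the NRF2 list, and 2265 to 3850 called genes of all tested. Among all tested genes, the higher and lower calls were 1772 and 1301, or 1556 and 1497 with median-of-ratios and 1437 and 1628 with upper-quartile factors. AKR7A2 passed the threshold under 5 alternatives and CYP8B1 under 6. No called value changed sign under these alternatives. The cause of these shifts was not tested. No paired analysis was possible because the columns of the table show the group but not the replicate number of the labels.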

Other observations

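Ratios between enzymes that share a reaction in different compartments or subunits are given from CPM per kilobase of exon. They cover 5 pairs picked after their values were seen, so they are a description and no test result is given. The ratio of cytosolic SOD1 to mitochondrial SOD2 was 3.08 ± 0.526 in SP and 7.53 ± 1.59 in NSP (SD, n = 4), and that of cytosolic TXN to mitochondrial TXN2 was 12.3 ± 3.69 in SP and 43.4 ± 9.54 in NSP. The ratio of the catalytic GCLC to the regulatory GCLM was 2.92 ± 1.48 in SP and 9.17 ± 4.61 in NSP. That of mitochondrial PRDX3 to PRDX4 of the endoplasmic reticulum was 1.90 ± 1.04 in SP and 13.8 ± 3.69 in NSP. In these 4 pairs all SP libraries lay below all NSP libraries. The ratio of cytosolic PRDX1 to mitochondrial PRDX3 was 8.58 ± 2.06 in SP and 8.34 ± 0.565 in NSP, and its groups overlapped.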
